A study of Homo sapiens with 8 samples.

Results

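The genes described here encode the TRAIL and TNF death receptors, the TRAIL ligand, the caspase that these receptors activate, and the proteins that hold caspases in check. The set was TNFRSF10A, TNFRSF10B, TNFRSF1A, TNFSF10, CASP8, CFLAR, BIRC2, BIRC3 and XIAP, 9 genes chosen by name. This set and the related lists below were chosen with earlier results of these data known. Counts of genes that passed among them are therefore not independent evidence. A gene entered when the array annotation paired a probe set with that gene alone, and where a gene had several such probe sets the brightest on average was used. This gave 8 of the 9 genes, of 18417 genes measured in all. BIRC3 had no probe set that met the rule and is not analysed here.

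The values come from 8 Affymetrix arrays of HCC1937, a breast cancer line described as deficient in DNA repair with a truncated BRCA1, and of HCC1937+BRCA1, its derivative that expresses wild-type BRCA1 from an exogenous copy. Each line was measured as a control and after 10 µM COH29, an inhibitor of ribonucleotide reductase, for 24 h, with 2 arrays in each of the 4 groups. All groups share the HCC1937 background and its truncated BRCA1. The treatment text is the same for all samples, so controls were taken from the treatment label. The sources used here name no vehicle for them, no promoter or vector for the exogenous BRCA1, and do not say whether HCC1937+BRCA1 is a single clone. Nothing tells if a group's 2 arrays stem from separate cultures, so the p-values cover the scatter of these arrays alone, and that scatter may be technical. Levels are log2 intensities, so a step of 1 is a doubling of signal, and levels of different genes are not compared because each probe set has its own brightness.

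Death receptors sit on the cell surface and start apoptosis when their ligand clusters them. TNFSF10 encodes TRAIL, the ligand of the receptors DR4 (TNFRSF10A) and DR5 (TNFRSF10B), which recruit an adaptor and caspase-8, and TNFRSF1A encodes the main receptor for TNF. CFLAR encodes c-FLIP, a relative of caspase-8 that lacks its protease activity and can block it at the receptor. BIRC2 and BIRC3 encode cIAP1 and cIAP2, ubiquitin ligases that keep TNF receptor signalling on its survival branch, and XIAP directly inhibits effector caspases. In many epithelial cancer cells DR5 is induced by stress of the endoplasmic reticulum through the transcription factor CHOP.

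Across genes, r was 0.996 to 0.997 for arrays of one group and 0.955 to 0.988 for arrays of different groups. BRCA1 itself gave a group mean ± SD of 10.55 ± 0.13 (n = 2) for HCC1937 control and 10.46 ± 0.05 in HCC1937+BRCA1 control, so this probe set does not tell the lines apart. The 7 measured epithelial markers averaged 10.57 to 10.87 per array. They were listed for basal breast epithelium, but EPCAM, CDH1, KRT18 and KRT19 are not specific to basal cells. The mean therefore does not show basal identity. Between the control groups KRT5 and KRT19 were lower (-1.70 and -0.82) and EGFR higher (0.51) in HCC1937+BRCA1. EPCAM, CDH1, KRT14 and KRT18 did not pass (-0.15 to 0.18). The 6 fibroblast markers averaged 5.71 to 5.97. Among 5 leukocyte markers, whose mean was 7.29 to 7.42 in HCC1937 and 6.50 to 6.73 in HCC1937+BRCA1, CD14 alone passed between the control groups, from 10.61 in HCC1937 to 6.84. With COH29, CD14 changed by -1.13 in HCC1937 (adjusted p = 0.000295) and -0.12 in HCC1937+BRCA1 (adjusted p = 0.448). This difference passed the interaction test (-1.0, adjusted p = 0.0357), but the call was lost whichever array was left out. Of 4 endothelial markers, with means of 6.59 to 7.31 and 6.23 to 6.75, PECAM1 fell by 1.95 and 1.48 and CDH5 by 1.28 and 0.50 on the log2 scale with COH29 in HCC1937 and HCC1937+BRCA1. CDH5 also passed the interaction test (-0.77, adjusted p = 0.0429), and this call too was lost whichever array was left out. VWF was at 0.25 and 0.05 and KDR at 0.13 and 0.14 with COH29, and neither passed. The part of these marker changes in the results below was not tested. All samples are labelled as HCC1937 or its derivative, so these marker levels are not counts of other cell types. In bulk RNA of a line, fewer cells that express a gene and less RNA per cell cannot be told apart.

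With COH29, DR5 rose in both lines while its ligand TRAIL, c-FLIP and cIAP1 fell. In HCC1937, 5 of the 8 genes passed the test, 2 higher and 3 lower, where 22.7% of all genes passed (10.2% higher and 12.5% lower). In HCC1937+BRCA1, 4 of 8 passed, 1 higher and 3 lower, where 33.6% of all genes passed (13.6% higher and 20.1% lower). A gene passed at a Benjamini-Hochberg adjusted p under 0.05 in limma, adjusted over all 18417 genes. The median change of the 8 genes was -0.03 in HCC1937 and -0.13 in HCC1937+BRCA1, against 0.04 for all genes in each line. Without HCC1937 COH29 replicate 1 or HCC1937 control replicate 2, the 5 in HCC1937 became 3.

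**Figure D1:**
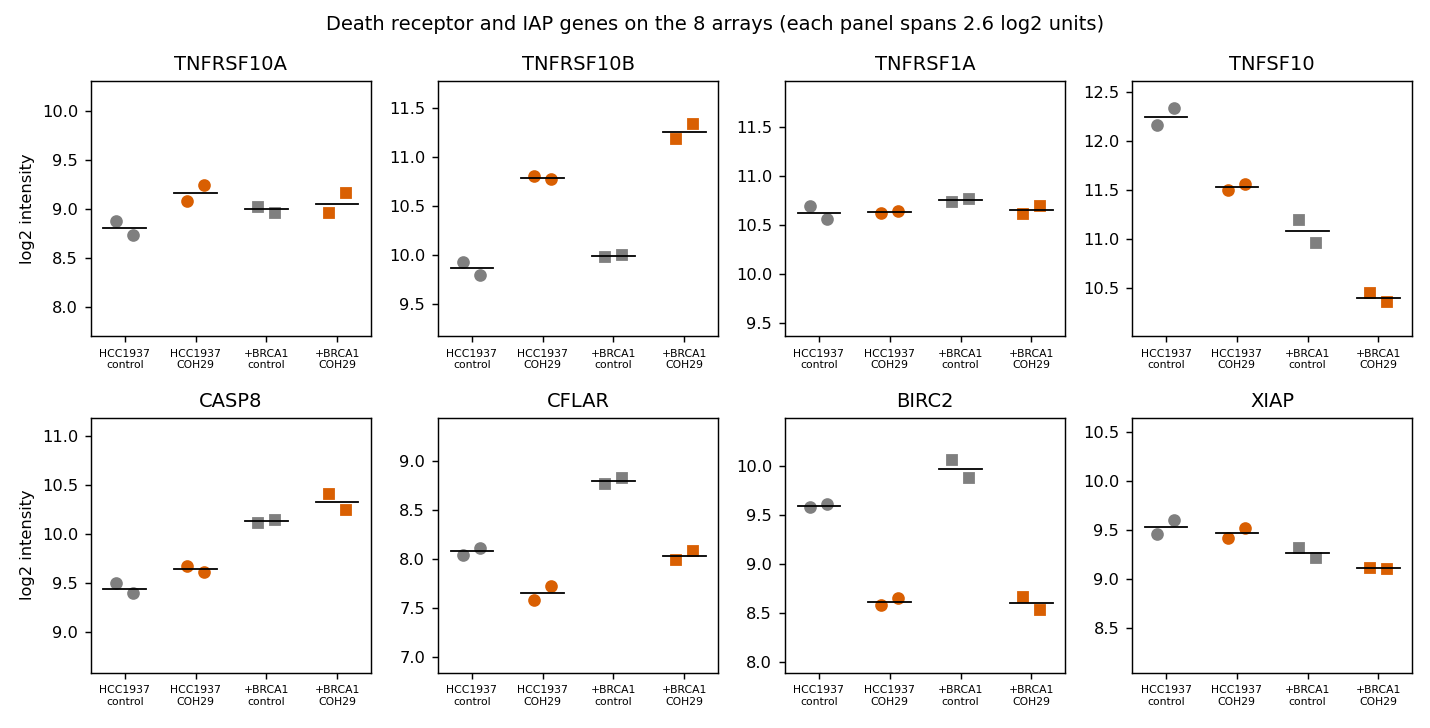
Log2 intensity (y axis) of the 8 measured genes in the 4 groups, with each array as a point, the group mean as a bar, circles for HCC1937, squares for HCC1937+BRCA1, grey for control and orange for COH29. TNFRSF10B is higher and TNFSF10, CFLAR and BIRC2 are lower on both COH29 arrays than on both control arrays of the same line.

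The largest rise was that of TNFRSF10B, which encodes DR5. The HCC1937 control arrays read 9.93 and 9.80 and the HCC1937 COH29 arrays 10.81 and 10.78. In HCC1937+BRCA1 the control arrays read 9.98 and 10.00 and the COH29 arrays 11.19 and 11.34. The 4 COH29 arrays were thus above all 4 control arrays, and the 2 COH29 arrays of HCC1937+BRCA1 were the highest. TNFRSF10B rose by 0.93 ± 0.09 (log2 change ± SE, n = 2 arrays per group) in HCC1937, a 1.90-fold change (adjusted p = 0.000191), and by 1.27 ± 0.09 in HCC1937+BRCA1, a 2.42-fold change (adjusted p = 1.82e-05). Among the genes that passed as higher, 208 of 1872 rose more in HCC1937 and 152 of 2498 in HCC1937+BRCA1.

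TNFRSF10A, which encodes the other death-inducing TRAIL receptor DR4, changed less. Its arrays read 8.88 and 8.74 in HCC1937 control and 9.09 and 9.25 in HCC1937 COH29, without overlap. In HCC1937+BRCA1 the control arrays read 9.03 and 8.96 and the COH29 arrays 8.96 and 9.17, which overlap. TNFRSF10A rose by 0.35 ± 0.10 in HCC1937 (adjusted p = 0.0389), while in HCC1937+BRCA1 the change was 0.07 ± 0.10, with a 95% interval of -0.17 to 0.30 (adjusted p = 0.65). The call in HCC1937 ended without any 1 of the 4 HCC1937 arrays or either HCC1937+BRCA1 control array, without moderation of the variances, with the replicate block and with only the 4 HCC1937 arrays fitted. Over all alternatives its adjusted p ran from 0.0123 to 0.22, with a change of 0.28 to 0.43.

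TNFRSF1A, the TNF receptor gene, varied least, with 0.12 between its highest and lowest group mean. Its 8 arrays lay between 10.57 and 10.77. The change with COH29 was 0.01 ± 0.09 in HCC1937 (95% interval -0.19 to 0.20, adjusted p = 0.971) and -0.10 ± 0.09 in HCC1937+BRCA1 (95% interval -0.29 to 0.10, adjusted p = 0.405). Both intervals leave out a change as large as that of TNFRSF10B.

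TNFSF10, the TRAIL gene, had the widest span of group means, 1.85 on the log2 scale. It read 12.17 and 12.34 in HCC1937 control and 11.50 and 11.56 in HCC1937 COH29. In HCC1937+BRCA1 it read 11.20 and 10.96 in control and 10.45 and 10.36 with COH29. The arrays of the 4 groups did not overlap, and both HCC1937+BRCA1 groups were below both HCC1937 groups. With COH29 it fell by 0.72 (SE 0.11) on the log2 scale in HCC1937, a 1.65-fold change (adjusted p = 0.00141), and by 0.68 (SE 0.11) in HCC1937+BRCA1, a 1.60-fold change (adjusted p = 0.00116). So the receptor DR5 and its ligand moved in opposite directions at the RNA level, in each line.

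Downstream of the receptors, CASP8, the initiator caspase gene, did not pass the test for COH29. It read 9.50 and 9.39 in HCC1937 control and 9.67 and 9.61 in HCC1937 COH29. In HCC1937+BRCA1 it read 10.11 and 10.14 in control and 10.40 and 10.24 with COH29. Both COH29 arrays were above both control arrays in each line, but the change of 0.19 ± 0.09 in both lines had adjusted p = 0.161 and 0.139. The 95% intervals were -0.01 to 0.40 and -0.02 to 0.39. After cyclic loess the change in HCC1937+BRCA1 was 0.30 and passed (adjusted p = 0.0302).

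CFLAR, the c-FLIP gene, fell in both lines. It read 8.04 and 8.11 in HCC1937 control and 7.58 and 7.72 in HCC1937 COH29. In HCC1937+BRCA1 it read 8.76 and 8.82 in control and 7.99 and 8.08 with COH29, so that the treated HCC1937+BRCA1 arrays came down to the level of the untreated HCC1937 arrays, with which they overlapped. The fall was 1.34-fold in HCC1937, -0.42 ± 0.09 (adjusted p = 0.00802), and 1.69-fold in HCC1937+BRCA1, -0.76 ± 0.09 (adjusted p = 0.000231). The call in HCC1937 ended without HCC1937 COH29 replicate 1 (adjusted p = 0.0543) or HCC1937 control replicate 2 (adjusted p = 0.066), and its adjusted p ran from 0.00238 to 0.066 over all alternatives.

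CFLAR was the only one of the 8 genes with a further probe set paired with it alone, probe set 8047401 beside the brighter 8047381 used above. The further probe set read 7.33 and 7.59 in HCC1937 control and 6.63 and 6.71 with COH29, and in HCC1937+BRCA1 8.76 and 8.50 in control and 6.99 and 6.59 with COH29. On this probe set the treated HCC1937+BRCA1 arrays lay below the untreated HCC1937 arrays, not at their level. Both probe sets showed the same direction, with a larger fall on the further one. In an alternative chosen after seeing the data, its log2 change in HCC1937 was -0.79 (SE 0.15, adjusted p = 0.00545) while its log2 change in HCC1937+BRCA1 was -1.84 (SE 0.15, adjusted p = 3.71e-05). CFLAR is known to give long and short protein forms by splicing, and the transcripts that each probe set reads were not looked up here.

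BIRC2, the cIAP1 gene, showed the largest fall of the 8 genes. It read 9.58 and 9.61 in HCC1937 control and 8.58 and 8.66 in HCC1937 COH29. In HCC1937+BRCA1 it read 10.06 and 9.88 in control and 8.67 and 8.53 with COH29. The 2 lines started from different levels and overlapped with COH29. BIRC2 fell 1.97-fold in HCC1937, -0.97 ± 0.10 (adjusted p = 0.000196), and 2.58-fold in HCC1937+BRCA1, -1.37 ± 0.10 (adjusted p = 1.73e-05). Among genes that passed as lower, 194 of 2307 fell more in HCC1937 and 124 of 3697 in HCC1937+BRCA1. BIRC2 and BIRC3 are close paralogs and neighbours in RefSeq's gene table, and whether this probe set also reads BIRC3 was not tested.

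XIAP, the inhibitor of effector caspases, did not pass in either line. Its arrays read 9.46 and 9.60 in HCC1937 control and 9.42 and 9.52 with COH29, which overlap. In HCC1937+BRCA1 they read 9.32 and 9.21 in control and 9.11 and 9.10 with COH29. The change was -0.06 ± 0.09 in HCC1937 (95% interval -0.26 to 0.15, adjusted p = 0.688) and -0.16 ± 0.09 in HCC1937+BRCA1 (95% interval -0.36 to 0.04, adjusted p = 0.199). The fall of BIRC2 was outside these intervals.

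**Figure D2:**
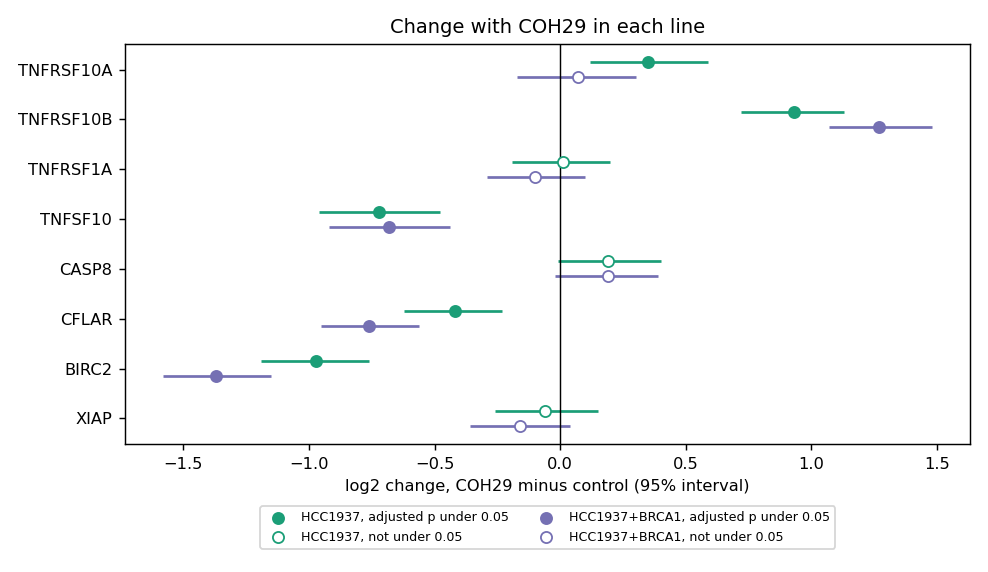
Log2 change with COH29 (x axis) of each gene in HCC1937 (green) and HCC1937+BRCA1 (purple), with 95% intervals of the moderated fit and filled points for adjusted p under 0.05. TNFRSF10B lies at 0.93 and 1.27, BIRC2 at -0.97 and -1.37, and TNFRSF1A and XIAP have intervals that include 0 in both lines.

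The 3 genes that fell in both lines, TNFSF10, CFLAR and BIRC2, are shown here with the 250 bases before a transcription start in RefSeq's table (GRCh38.p14). The table held 6 of the 8 genes, all but TNFRSF10A and TNFRSF10B. The window of TNFSF10 is chr3:172523431-172523680 on the minus strand, that of CFLAR chr2:201118466-201118715 on the plus strand and that of BIRC2 chr11:102346964-102347213 on the plus strand. RefSeq's gene table begins CFLAR at 201116164, so its window lies inside the gene, and the bases before the outermost start were not searched. Each is written 5′ to 3′ in the direction of the gene, with motif matches in capitals.
TNFSF10: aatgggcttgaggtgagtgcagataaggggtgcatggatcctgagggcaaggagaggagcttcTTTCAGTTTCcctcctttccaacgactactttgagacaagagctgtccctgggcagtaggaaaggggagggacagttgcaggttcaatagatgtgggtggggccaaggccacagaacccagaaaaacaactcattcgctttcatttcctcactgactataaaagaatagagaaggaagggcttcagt
CFLAR: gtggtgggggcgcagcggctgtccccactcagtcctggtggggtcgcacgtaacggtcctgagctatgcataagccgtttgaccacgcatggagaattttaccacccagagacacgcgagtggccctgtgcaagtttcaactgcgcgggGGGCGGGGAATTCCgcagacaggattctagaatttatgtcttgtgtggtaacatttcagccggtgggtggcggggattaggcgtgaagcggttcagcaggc
BIRC2: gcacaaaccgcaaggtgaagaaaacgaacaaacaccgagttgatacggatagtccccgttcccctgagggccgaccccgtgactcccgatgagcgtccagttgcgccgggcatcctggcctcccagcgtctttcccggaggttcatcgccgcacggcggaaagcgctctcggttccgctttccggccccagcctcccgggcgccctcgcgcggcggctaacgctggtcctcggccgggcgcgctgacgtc
The capitals in TNFSF10 mark a match to the interferon-stimulated response element, read on the opposite strand, whose leftmost base is at -187 from the start. Of 27305 promoters in the table, 3.07% held this motif in the same window. The capitals in CFLAR mark a GC box (GGGCGG, in 42.3% of promoters) from -101 and an NF-kB site (in 5.05%) from -97, which share bases. BIRC2 held no match, and its window had 67.6% G and C, against 58.8% in CFLAR, 49.6% in TNFSF10 and a median of 58.0% over all promoters. Both strands were also searched for an AP-1 site (TGACTCA, in 4.16% of promoters), a cyclic AMP response element (TGACGTCA, in 1.77%), a C/EBP-ATF element (TGATGCAA, in 0.82%) and a forkhead site (TGTTTAC, in 2.98%), with no match in the 3 windows. The BIRC2 window ends in all but the last base of the cyclic AMP response element, and the base after the window was not searched.

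The series compares the response of the lines, so the COH29 change in HCC1937 was set against that in HCC1937+BRCA1. By limma's interaction test 0 of the 8 genes passed, under every alternative as well, where 0.956% of all genes passed (0.413% higher and 0.543% lower), and 3 of the 8 had an unadjusted p under 0.05, where 13.2% of all genes did. These 3 were TNFRSF10B, CFLAR and BIRC2, each with the larger change in HCC1937+BRCA1. The difference of effects, HCC1937 minus HCC1937+BRCA1, was -0.35 ± 0.13 for TNFRSF10B (95% interval -0.63 to -0.06, adjusted p = 0.292), 0.33 ± 0.12 for CFLAR (0.05 to 0.61, adjusted p = 0.299) and 0.39 ± 0.13 for BIRC2 (0.09 to 0.70, adjusted p = 0.253). The fall of TNFSF10 differed by -0.04 ± 0.15 (95% interval -0.38 to 0.29, adjusted p = 0.947). The change of TNFRSF10A differed by 0.29 ± 0.15 (95% interval -0.05 to 0.62, adjusted p = 0.459), so its call in HCC1937 and lack of a call in HCC1937+BRCA1 are not shown to differ. With the further CFLAR probe set the difference of effects was 1.05 ± 0.21 (adjusted p = 0.0671). The other 3 genes, TNFRSF1A, CASP8 and XIAP, had differences of 0.10, 0.01 and 0.10, with adjusted p from 0.796 to 0.992.

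Without the drug, HCC1937+BRCA1 had less TNFSF10 and more CASP8, CFLAR and BIRC2 than HCC1937. In all 4 of 8 genes passed, 3 higher and 1 lower, where 31.2% of all genes passed (16.4% higher and 14.8% lower). This comparison shares its arrays with the COH29 comparisons, since the same 4 control arrays serve in each. TNFSF10 was 2.25-fold lower in HCC1937+BRCA1, a log2 difference of -1.17 ± 0.11 (adjusted p = 4.56e-05), with 311 of 2733 lower genes further apart. CASP8 was higher by 0.69 ± 0.09 (adjusted p = 0.000424) and CFLAR by 0.72 ± 0.09 (adjusted p = 0.000278). BIRC2 was higher by 0.38 ± 0.10 (adjusted p = 0.0144). The BIRC2 call ended without HCC1937+BRCA1 control replicate 1 (adjusted p = 0.108), HCC1937 control replicate 1 (0.0828) or HCC1937 control replicate 2 (0.0615), within a range of 0.00325 to 0.108 over all alternatives. XIAP was at -0.26 ± 0.09 (95% interval -0.47 to -0.06, adjusted p = 0.0533), and it passed when dim genes were left out (adjusted p = 0.028), after cyclic loess (0.0293), with trend and robust moderation (0.0238) and with the crossed block chosen after seeing the data (0.0318), over a range of 0.0238 to 0.291. None of the 3 receptor genes passed, with differences of 0.18 for TNFRSF10A, 0.12 for TNFRSF10B and 0.12 for TNFRSF1A and adjusted p from 0.244 to 0.366.

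With COH29 on board, 5 of the 8 genes differed between the lines, 3 higher and 2 lower in HCC1937+BRCA1, where 31.6% of all genes passed (14.2% higher and 17.4% lower). TNFSF10 was lower, at -1.12 ± 0.11 (adjusted p = 5.95e-05), and CASP8 was higher by 0.68 ± 0.09 (adjusted p = 0.000447), both close to their differences without the drug. TNFRSF10B, whose difference without COH29 was 0.12, was now higher by 0.47 ± 0.09 (adjusted p = 0.00349). CFLAR was higher by 0.38 ± 0.09 (adjusted p = 0.00873), and BIRC2 was at -0.02 ± 0.10 (95% interval -0.23 to 0.20, adjusted p = 0.932). XIAP was lower, at -0.37 ± 0.09 (adjusted p = 0.0125). The 5 became 3 without HCC1937+BRCA1 COH29 replicate 2. The XIAP call ended without HCC1937 COH29 replicate 2 (adjusted p = 0.0718), HCC1937+BRCA1 COH29 replicate 1 (0.0504) or HCC1937+BRCA1 COH29 replicate 2 (0.056), and ran from 0.00265 to 0.0718 over all alternatives. The CFLAR call ended without HCC1937 COH29 replicate 1 (adjusted p = 0.0531) or HCC1937+BRCA1 COH29 replicate 2 (0.0561), with the mean of its probe sets (0.0845) and with the further probe set, where the difference was 0.12 (0.604).

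**Figure D3:**
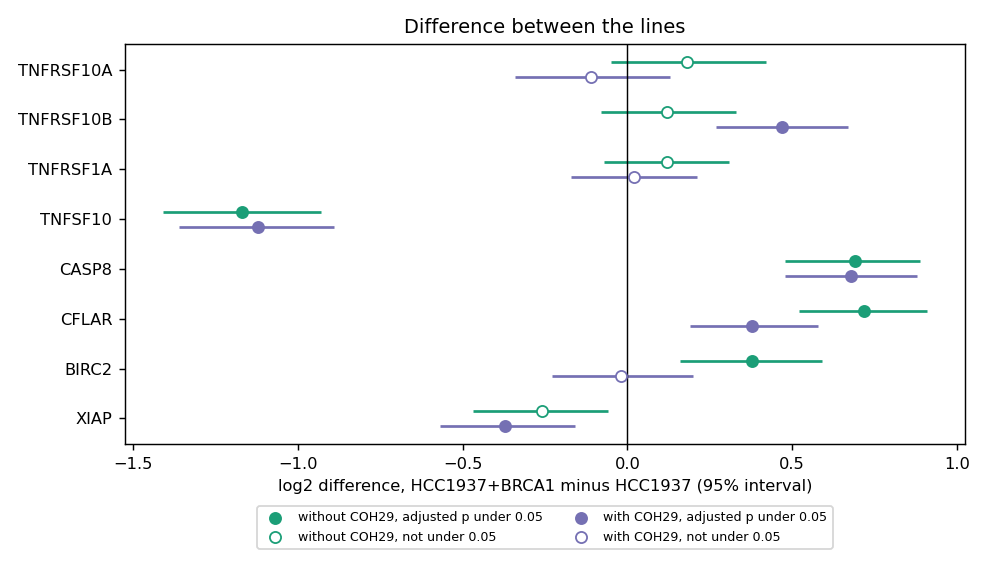
Log2 difference between the lines (x axis), HCC1937+BRCA1 minus HCC1937, without COH29 (green) and with COH29 (purple), with 95% intervals of the moderated fit and filled points for adjusted p under 0.05. TNFSF10 lies at -1.17 and -1.12 and CASP8 at 0.69 and 0.68, while BIRC2 goes from 0.38 to -0.02.

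When the 4 groups were ranked for each gene, only TNFSF10 and XIAP shared an order. They ran from HCC1937 control through HCC1937 COH29 and HCC1937+BRCA1 control to HCC1937+BRCA1 COH29 at the bottom, with overlap for XIAP between its top 2 groups. CASP8 ran the opposite way, with no overlap between neighbours. TNFRSF10B was ordered by drug and then by line, with HCC1937+BRCA1 COH29 at the top and HCC1937 control at the bottom, and no neighbours overlapped. CFLAR and BIRC2 were highest in HCC1937+BRCA1 control and next in HCC1937 control. CFLAR was lowest in HCC1937 COH29, without overlap on the probe set used. On its further probe set the 2 COH29 groups overlapped (6.63 and 6.71 in HCC1937, 6.99 and 6.59 in HCC1937+BRCA1). For BIRC2 the 2 COH29 groups overlapped at the bottom. TNFRSF10A and TNFRSF1A, whose group means spanned 0.35 and 0.12, each had overlap between 2 pairs of neighbouring groups.

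In RefSeq's gene table CASP10, the gene of another initiator caspase, lies between CFLAR and CASP8. It was named after its values were seen. CASP10 read 7.07 and 7.08 in HCC1937 control and 5.80 and 5.71 in HCC1937+BRCA1 control. It was lower in HCC1937+BRCA1, at -1.32 ± 0.14 (adjusted p = 0.000107), while CFLAR and CASP8 were higher. With COH29 it was at 0.03 ± 0.14 in HCC1937 (adjusted p = 0.909) and 0.15 ± 0.14 in HCC1937+BRCA1 (adjusted p = 0.413). The 3 genes thus showed 3 different patterns over the 4 groups.

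For the 3 genes with the widest span of group means, the nearest other genes were found by the distance between centred log2 values over the 8 arrays, as a description. Nearest to TNFSF10 were IFIT1, an interferon-induced gene, at a distance of 0.17, MTRF1, a mitochondrial translation release factor gene, at 0.28, and HCAR1, a lactate receptor gene, at 0.29. IFIT1 had group means of 10.35, 9.74, 9.32 and 8.65 in HCC1937 control, HCC1937 COH29, HCC1937+BRCA1 control and HCC1937+BRCA1 COH29. Nearest to TNFRSF10B were BTG1, an antiproliferative gene, at 0.22, CEMIP2, a gene of a cell-surface hyaluronidase, at 0.22, and GTF2B, a general transcription factor gene, at 0.23. BTG1 had group means of 11.15, 12.24, 11.40 and 12.56 in the same order. Nearest to BIRC2 were CIP2A, which encodes an inhibitor of the phosphatase PP2A, at 0.17, the DNA glycosylase gene NEIL3 at 0.26 and the adhesion gene AMIGO2 at 0.28. CIP2A had group means of 10.78, 9.81, 11.10 and 9.86.

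**Figure D4:**
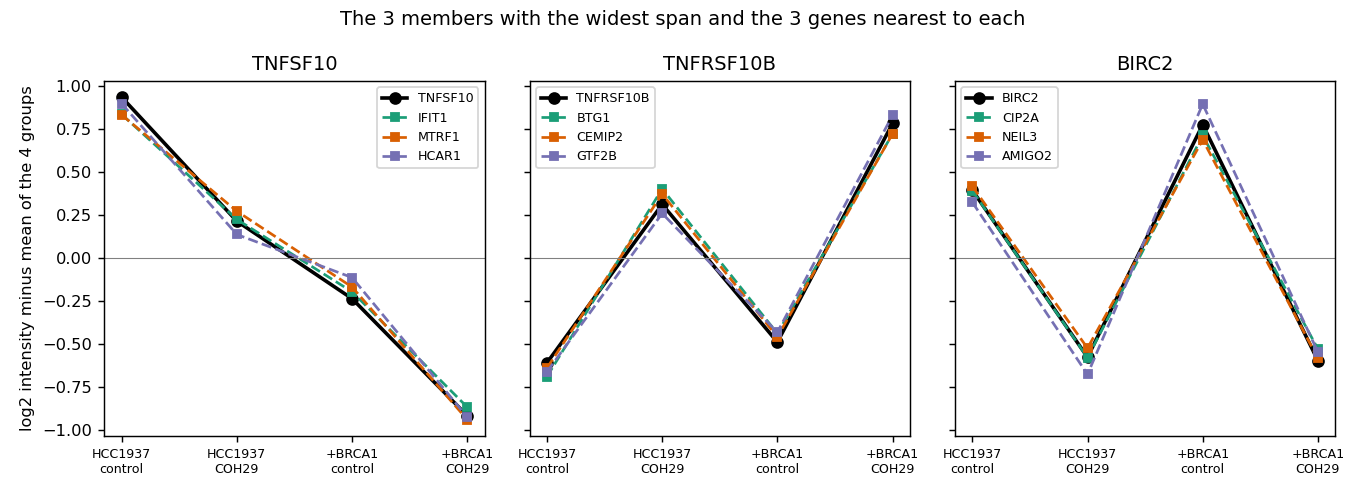
Group means of log2 intensity minus the mean of the 4 groups (y axis) for TNFSF10, TNFRSF10B and BIRC2 (black) and the 3 genes nearest to each by distance over the 8 arrays (dashed), in the 4 groups (x axis). The lines fall stepwise for TNFSF10, rise with COH29 for TNFRSF10B and drop with COH29 for BIRC2.

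The other ligands, receptors and decoys of the family went both ways with COH29. Of 17 measured of 19 listed genes, HCC1937 showed 2 higher and 2 lower, and HCC1937+BRCA1 showed 5 higher and 2 lower. Medians were 0.13 and 0.26. Of all genes 10.2% passed as higher and 12.5% as lower in HCC1937, and 13.6% and 20.1% in HCC1937+BRCA1. The decoy receptor gene TNFRSF10D (DcR2), whose product binds TRAIL without a working death domain, read 6.68 and 6.39 in HCC1937 control and 6.74 and 6.84 with COH29. In HCC1937+BRCA1 it read 8.39 and 8.27 in control and 10.21 and 10.30 with COH29, far above all HCC1937 arrays. It rose by 1.93 ± 0.11 in HCC1937+BRCA1 (adjusted p = 8.37e-06), was at 0.25 ± 0.11 in HCC1937 (adjusted p = 0.146), and the difference of effects passed, at -1.67 ± 0.16 (adjusted p = 0.00401), but not without moderation of the variances (0.13). Without COH29 it was already higher in HCC1937+BRCA1 by 1.80 ± 0.11 (adjusted p = 4.85e-06), and with COH29 by 3.47 ± 0.11 (adjusted p = 1.23e-07). The TRAIL receptor genes are close paralogs and signal shared between their probe sets was not tested.

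FAS, the gene of the FAS death receptor, fell by 0.29 and 0.68 on the log2 scale in HCC1937 and HCC1937+BRCA1 (adjusted p = 0.0486 and 0.00054), and TNFRSF1B, the second TNF receptor, rose by 0.34 and 0.66 (adjusted p = 0.0409 and 0.00107). TNFRSF21 (DR6) rose by 0.44 in HCC1937 (adjusted p = 0.00582) and was at 0.22 in HCC1937+BRCA1 (adjusted p = 0.0795). The remaining calls, named after their values were seen, were the lymphotoxin beta receptor gene LTBR, lower by 0.28 and 0.31, and in HCC1937+BRCA1 TNF, TNFSF14 and the soluble decoy gene TNFRSF11B, higher by 0.43, 0.36 and 0.29. The TNFRSF1B call in HCC1937 ended without any 1 of the 4 HCC1937 arrays (adjusted p 0.0738 to 0.233) or either HCC1937+BRCA1 control array (0.057), after cyclic loess (0.0775), with trend and robust moderation (0.0516), without moderation (0.111) and with the replicate block (0.0633). Of 17 alternatives the LTBR call was kept in 9 in HCC1937 and 13 in HCC1937+BRCA1, and that of TNFSF14 in 8. Of 16 alternatives those of TNF and TNFRSF11B were kept in 11 and 10. Both genes gave low signal and were removed in the alternative that leaves out dim genes. In HCC1937+BRCA1 the group means of TNF were 5.96 in control and 6.38 with COH29, and those of TNFRSF11B 4.97 and 5.26. Whether these rises stand above background was not tested. The FAS call in HCC1937 ended without HCC1937 COH29 replicate 1 (adjusted p = 0.235), HCC1937 control replicate 1 (0.243) or 2 (0.0913), or any 1 of the 4 HCC1937+BRCA1 arrays (0.0649 to 0.066). It also ended with arrays shifted to one median (0.0645), without moderation (0.0851), with the replicate block (0.0747) and with only the 4 arrays compared (0.0878). In HCC1937 the 2 lower became 0 without HCC1937 COH29 replicate 1 or any 1 of the 4 control arrays and 1 without any other array, and the 2 higher became 1 without HCC1937 COH29 replicate 1 or any 1 of the 4 control arrays. In HCC1937+BRCA1 the 5 higher became 2 without control replicate 2 and 3 without HCC1937+BRCA1 COH29 replicate 2 or HCC1937+BRCA1 control replicate 1, and the 2 lower became 1 without HCC1937+BRCA1 COH29 replicate 1 or HCC1937+BRCA1 control replicate 1 or 2.

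Among adaptors, kinases and ubiquitin enzymes of the receptor complexes, 20 of 22 listed genes were measured. HCC1937 showed 2 higher and 3 lower, and HCC1937+BRCA1 showed 1 higher and 6 lower, with medians of 0.03 and -0.04. Over all genes 10.2% were higher and 12.5% lower in HCC1937, and 13.6% and 20.1% in HCC1937+BRCA1. MLKL, the effector gene of necroptosis, fell by 0.83 and 1.09 on the log2 scale (adjusted p = 0.00063 and 7.65e-05). The adaptor genes TRAF5 and TRAF3 fell by 1.05 and 0.43 in HCC1937 (adjusted p = 0.00034 and 0.0213) and by 0.53 and 0.61 in HCC1937+BRCA1 (adjusted p = 0.00674 and 0.00244). CYLD, a deubiquitinase gene of TNF receptor signalling, rose by 0.38 and 0.49 (adjusted p = 0.0201 and 0.00399), and RNF31, named after its values were seen, rose by 0.30 in HCC1937 (adjusted p = 0.0294). The RNF31 change was 0.01 with the mean of its probe sets. Leaving out any 1 of the 4 HCC1937 arrays took the 2 higher in HCC1937 to 0, and the 1 higher in HCC1937+BRCA1 became 2 without COH29 replicate 1 of that line. The TRAF3 call in HCC1937 ended without HCC1937 COH29 replicate 1 (adjusted p = 0.129) or HCC1937 control replicate 1 (0.146), without moderation (0.0924) and with only the 4 arrays compared (0.0502).

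Of the further genes whose products carry a BIR domain, the fold that defines the IAP family, NAIP, BIRC5 and BIRC6 fell with COH29 in both lines. BIRC7 (0.13 and 0.08) and BIRC8 (-0.13 and 0.04) did not pass in either line, and neither did XIAP above. Of 18 listed further caspases, IAP genes and IAP antagonists 16 were measured. HCC1937 showed 2 higher and 3 lower, and HCC1937+BRCA1 showed 1 higher and 9 lower, with medians of -0.05 and -0.27. Shares over all genes were 10.2% higher and 12.5% lower in HCC1937, and 13.6% and 20.1% in HCC1937+BRCA1. The 3 that fell in HCC1937 were NAIP, known from the inflammasome, by 1.2, BIRC5 (survivin), which also works in mitosis, by 0.86, and BIRC6 by 0.56 on the log2 scale (adjusted p = 0.000148, 0.000204 and 0.00326). In HCC1937+BRCA1 they fell by 1.71, 0.94 and 0.83 (adjusted p = 1.26e-05, 6.44e-05 and 0.000243). APAF1, the scaffold gene of the apoptosome, rose by 0.57 and 0.43 (adjusted p = 0.00364 and 0.00937). CASP9, named after its values were seen, rose by 0.31 in HCC1937 (adjusted p = 0.0401). The other falls in HCC1937+BRCA1, also named after their values were seen, included the caspase genes CASP2 (-0.44) and CASP6 (-0.38). The rest were HTRA2 (-0.36), DFFA (-0.31), DFFB (-0.29) and BID (-0.26), and none of these other falls passed in HCC1937. Leaving out any 1 of the 4 HCC1937 arrays took the 2 higher in HCC1937 to 1. In HCC1937+BRCA1 the 1 higher became 0 without HCC1937+BRCA1 COH29 replicate 2 or HCC1937+BRCA1 control replicate 2, where the adjusted p of APAF1 was 0.0689 and 0.0639. The 9 lower became 5 without HCC1937+BRCA1 COH29 replicate 1 or HCC1937+BRCA1 control replicate 1 or 2.

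TNF receptor signalling leads to NF-kB, which is known to drive CFLAR and BIRC3, and its genes moved both ways. Of 22 NF-kB subunits and feedback targets, HCC1937 showed 3 higher and 3 lower, and HCC1937+BRCA1 showed 8 higher and 6 lower. Medians were 0.04 and 0.15. Among all genes 10.2% were higher and 12.5% lower in HCC1937, and 13.6% and 20.1% in HCC1937+BRCA1. SOD2 rose by 0.59 and 0.42 (adjusted p = 0.00101 and 0.00343), while the chemokine genes CXCL8 and CXCL1 fell by 0.77 and 1.04 in HCC1937 (adjusted p = 0.00102 and 0.000739) and changed by -0.64 and -2.68 in HCC1937+BRCA1 (adjusted p = 0.00153 and 4.17e-06). NFKBIZ rose by 0.87 in HCC1937+BRCA1 (adjusted p = 7.98e-05) and was at -0.01 in HCC1937 (adjusted p = 0.932), a value whose sign turned with the scaling of the arrays. The other calls in HCC1937, named after their values were seen, were NFKB2 and NFKBIE, higher by 0.30 and 0.40, and CXCL2, lower by 0.63. Of 17 alternatives the NFKB2, NFKBIE and CXCL2 calls were kept in 8, 12 and 13. The 3 higher in HCC1937 became 1 without HCC1937 COH29 replicate 1 or 2 or HCC1937 control replicate 2, and the 8 higher in HCC1937+BRCA1 became 4 without HCC1937+BRCA1 COH29 replicate 2 or HCC1937+BRCA1 control replicate 1. Without COH29, 13 of the 22 genes were lower and 3 higher in HCC1937+BRCA1 than in HCC1937, where 14.8% of all genes were lower and 16.4% higher. CFLAR was higher in that comparison, and the part of NF-kB in its level was not tested.

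The CHOP and ATF4 branch of the stress response, which holds known inducers of DR5, rose together with TNFRSF10B. The list used for it also holds ATF6, ERN1 and XBP1, which belong to other branches of that response. ERN1 rose by 1.02 and 1.34 and XBP1 by 0.67 and 1.24, and ATF6 passed in neither line (0.24 and 0.04). Over all genes 10.2% were higher and 12.5% lower in HCC1937, and 13.6% and 20.1% in HCC1937+BRCA1. Of 14 genes, 12 rose in HCC1937 and 13 in HCC1937+BRCA1 and 0 fell, with medians of 1.03 and 1.51, and these counts stayed at 12 and 13 without any 1 array. DDIT3, which encodes CHOP, rose by 2.47 and 3.40 (adjusted p = 5.86e-06 and 6.97e-07), and TRIB3, a pseudokinase gene, by 1.26 and 2.09 (adjusted p = 4.09e-05 and 1.44e-06). CHAC1 and SESN2 rose by 2.37 and 1.49 in HCC1937 and by 4.47 and 2.95 in HCC1937+BRCA1. For these 4 genes the larger rise in HCC1937+BRCA1 passed the interaction test, while that of TNFRSF10B did not. The DDIT3 difference failed without any 1 array and that of TRIB3 in 7 of 8 such fits. Without moderation of the variances the differences of DDIT3, TRIB3 and SESN2 did not pass (adjusted p = 0.217, 0.123 and 0.106). The list was chosen with the rise of this branch in these arrays already known, so its count is not independent evidence.

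Interferon-inducible genes, a group to which TNFSF10 is known to belong, included more that fell than rose with COH29. Of 13 measured of 16 listed genes, HCC1937 showed 6 lower and 1 higher, and HCC1937+BRCA1 showed 8 lower and 1 higher. Medians were -0.29 and -0.28. Over all genes 12.5% were lower and 10.2% higher in HCC1937, and 20.1% and 13.6% in HCC1937+BRCA1. IFIT1 fell by 0.61 and 0.67 on the log2 scale (adjusted p = 0.00271 and 0.000955), IFI44 by 0.69 and 0.62 (adjusted p = 0.00179 and 0.00196), IFIT3 by 0.50 and 0.79 (adjusted p = 0.00299 and 0.000153) and OAS2 by 0.40 and 0.74 (adjusted p = 0.0078 and 0.000198). The single rises, named after their values were seen, were IFIT2 in HCC1937 (0.26, adjusted p = 0.0425), which fell by 0.23 in HCC1937+BRCA1 (adjusted p = 0.0495), and IRF1 in HCC1937+BRCA1 (0.41, adjusted p = 0.00846). In HCC1937, IRF1, IRF7 and IFI6 were at 0.28, 0.16 and 0.02 and did not pass. Between the control groups 9 of the 13 were lower and 0 higher in HCC1937+BRCA1, with a median of -0.80. Of all genes 14.8% were lower and 16.4% higher there. Between the COH29 groups 10 were lower and 0 higher, with a median of -0.95, where 17.4% of all genes were lower and 14.2% higher. The 6 lower in HCC1937 became 3 without HCC1937 control replicate 1, where OAS2 had an adjusted p of 0.0591, and the 8 in HCC1937+BRCA1 became 5 without HCC1937+BRCA1 COH29 replicate 1 or HCC1937+BRCA1 control replicate 1 or 2. Leaving out any 1 of the 8 arrays took the 1 higher in HCC1937 to 0, and the 1 in HCC1937+BRCA1 became 0 without COH29 replicate 2 or control replicate 1 and 2 without COH29 replicate 1 of that line.

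**Figure D5:**
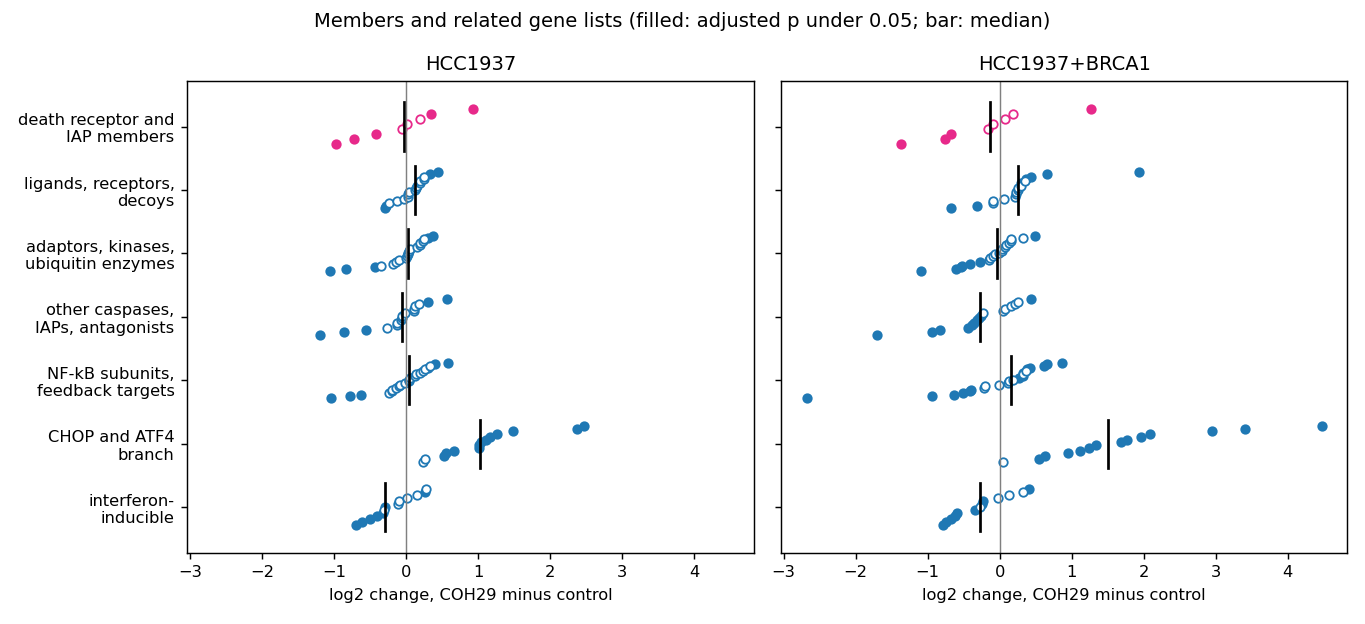
Log2 change with COH29 (x axis) of the 8 genes (pink) and of the genes of 6 related lists (blue, y axis) in each line, with filled points for adjusted p under 0.05 and a bar at each median. The CHOP and ATF4 list, which also holds ATF6, ERN1 and XBP1 of other branches, lies to the right in both lines, with medians of 1.03 and 1.51. The isolated point of the ligand, receptor and decoy list in HCC1937+BRCA1 is TNFRSF10D at 1.93.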

How the data were processed

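The deposited table gives RMA log2 intensities for 33297 probe sets on 8 arrays and was used as it stands. The submitters' processing notes name RMA and Partek, with no version. Sorted values differed between arrays by 0.297 at most. No genome build is given in the sources used here, and no detection p was used, so precision rests on array number. The platform annotation paired 19460 probe sets with 1 gene, 1754 with several and 12083 with none. The last 2 kinds were left out, and the brightest probe set per gene was kept (18417 genes).

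A group-means model of all 8 arrays was fitted in limma 3.58.1 under R 4.3.3 (eBayes, 4 residual degrees of freedom), with 5 contrasts and Benjamini-Hochberg adjustment over all genes. Summaries were made in Python 3.11.15 with pandas 2.3.3, and plots with matplotlib 3.10.9. On simulated data for COH29 in HCC1937 (18417 genes), the fit recovered 100% of genes changed by 1 or 2 and 62.7% of those changed by 0.5. It also made 13 false calls. Only 67, 67 and 66 genes were changed by 0.5, 1 and 2, far fewer than the 4179 called in the data. The members and lists were chosen with earlier results of these data known. Genes named by rule were the members, the 3 nearest genes of the 3 members with the widest span, and the 4 genes of each list with the smallest p for COH29. Others were named outside this rule. They include the genes marked as named after their values were seen, and ERN1, XBP1, ATF6, BIRC7, BIRC8, IRF7 and IFI6. The alternatives tried are given in the closing section.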

Additional observations from a re-analysis of the deposited data

Results flagged for a closer look

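None of the 8 genes passed the test of a difference between the lines' responses to COH29, and groups of 2 arrays are too small for a test of single outlying arrays. Among the named genes of the related lists, 7 passed the interaction test in limma (HCC1937 minus HCC1937+BRCA1). A smaller rise in HCC1937 was measured for TNFRSF10D (-1.67, adjusted p = 0.00401), CHAC1 (-2.11, adjusted p = 0.000438), SESN2 (-1.46, adjusted p = 0.0031), DDIT3 (-0.93, adjusted p = 0.0359) and TRIB3 (-0.83, adjusted p = 0.0206). NFKBIZ differed by -0.88 (adjusted p = 0.0138), and CXCL1 by 1.64 (adjusted p = 0.00785), with the larger fall in HCC1937+BRCA1. Without moderation of the variances none of these but CHAC1 passed, with adjusted p of 0.106 for NFKBIZ and SESN2, 0.123 for TRIB3, 0.13 for TNFRSF10D, 0.169 for CXCL1 and 0.217 for DDIT3. Without any 1 array the DDIT3, TRIB3 and NFKBIZ differences no longer passed in most cases: for DDIT3 in all 8, with adjusted p from 0.0605 to 0.137, while TRIB3 and NFKBIZ failed in 7 of 8.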

How the results depend on the processing

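Each comparison was repeated with dim genes left out (below the 30th percentile), arrays shifted to one median, cyclic loess, trend and robust moderation, no moderation, probe sets averaged per gene, a replicate block, only the 4 arrays compared, and each array left out. Chosen after seeing the data were CFLAR by its other probe set and a block that swaps the numbers in HCC1937. Of 677 values of the 8 genes under these settings, 633 kept direction and side of the threshold, 21 lost a call, 5 gained one and 18 changed sign, all 18 for changes that had not passed. Without 1 array the number of genes passing was 3 to 5 for COH29 in HCC1937, 4 in HCC1937+BRCA1, 0 for the difference of effects, 3 to 4 between control groups and 3 to 5 between COH29 groups. Shifting arrays to one median moved the share of all calls that were higher from 40.3% to 54.4% for COH29 in HCC1937+BRCA1, and the 3 falls and 1 rise there kept their calls.

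Replicate numbers were not a stated batch, and deviations of same-numbered arrays correlated between groups with r from -0.204 to 0.260. With the replicate block, 4 genes in place of 5 passed for COH29 in HCC1937, as TNFRSF10A had an adjusted p of 0.0573, and it changed no other member's call. With crossed numbers 5, 4, 0, 5 and 5 genes passed in the 5 comparisons, in the order above.

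The values that changed sign were, for COH29 in HCC1937, TNFRSF1A (-0.0025 and -0.06 when HCC1937 COH29 or control replicate 2 was left out, range -0.06 to 0.07), XIAP (0.01 without control replicate 2, range -0.12 to 0.01), NFKBIZ (0.02 with arrays shifted, after cyclic loess and without COH29 replicate 1, and 0.04 without control replicate 2, range -0.07 to 0.04) and CASP10 (-0.06 after cyclic loess and -0.17 without COH29 replicate 2, range -0.17 to 0.23). In HCC1937+BRCA1 they were TNFRSF10A (-0.04 without COH29 replicate 2, range -0.04 to 0.17) and TNFRSF1A (0.01 after cyclic loess). For the difference of effects TNFSF10 was at 0.07 without HCC1937+BRCA1 control replicate 2 and 0.04 without HCC1937 control replicate 2 (range -0.16 to 0.07). CASP8 was there at -0.03 with arrays shifted, -0.07 after cyclic loess and, without single arrays, from -0.07 to 0.09, with -0.01, -0.02 and -0.05 among them. Between COH29 groups TNFRSF1A was at -0.02 without HCC1937+BRCA1 COH29 replicate 2. BIRC2 was there at 0.02 with arrays shifted, 0.04 after cyclic loess, and 0.03 and 0.06 without HCC1937 or HCC1937+BRCA1 COH29 replicate 2 (range -0.09 to 0.06). Ranges are over the arrays left out. The cause was not tested.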
